A study of Ovis aries with 8 samples.

Results

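Transcripts of 10 hypothalamic peptide precursors outside the classical hunger and melanocortin pair were followed in the mediobasal hypothalamus of adult Ile-de-France ewes. The genes were GAL, PENK, PNOC, NTS, ADCYAP1, CCK, TAC1, GRP, NMU and NUCB2, chosen by symbol, and each had 1 row among the 33609 genes of the count table. The groups were food-restricted ewes and well-fed ewes given food ad lib, with 60 ewes in each, 30 from each of 2 years. The labels name no transgene, drug or other treatment, and do not give the degree or length of the restriction. RNA from 15 ewes was mixed into each of 4 pools per group, so n counts pools and the spread is that between mixes of ewes. All 10 genes had enough reads to be among the 18193 genes tested.

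Neuropeptides are cut from larger precursors inside secretory granules and act mainly on G protein-coupled receptors. In the hypothalamus, galanin and the opioid peptides are known to promote feeding when given into the brain. Cholecystokinin, neurotensin, neuromedin U and nesfatin-1 are known to reduce it. Pituitary adenylate cyclase-activating peptide (PACAP), substance P and gastrin-releasing peptide also act on feeding, body temperature or hormone release. A transcript level says nothing of peptide release.

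The pools stood apart in a way the feeding groups do not follow. On the first principal component of the tested genes that are neither one of the 10 nor in a gene list used here (34.5% of the variance), food-restricted pools 1 and 2 and well-fed pools 3 and 4 lay above 0. Food-restricted pools 3 and 4 and well-fed pools 1 and 2 lay below 0. They are called upper and lower pools here. The labels give no year, batch or day for a pool. Total counts were between 36192025 and 48125991. Arcuate markers were present in every pool, among them POMC, AGRP and TBX3, and the summed neuronal markers were at 5113 to 5990 CPM (reads of a gene scaled to the depth of its library) in food-restricted pools and 5288 to 5491 CPM in well-fed pools.

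None of the 10 genes was called between the feeding groups, and for all 10 the pools of both groups overlapped. The test called 1 of 18193 genes, AGRP, which is 0.00550% (edgeR quasi-likelihood, adjusted p = 0.0296), and the groups did not overlap in 291 genes, or 1.60%. Of the 10 log2 fold changes, 6 lay above 0 and 4 below it, with a median of 0.04. Among all genes tested 9632 lay above 0 and 8561 below, with a median of 0.01. The edgeR adjusted p was 1.00 for each of the 10. At an unadjusted p under 0.05 edgeR gave 0 of the 10, beside 1.70% of all genes tested. Exact two-sided permutation of the pools gave p between 0.143 and 1.00 for the 10 genes. In bulk tissue, fewer cells of a type and less RNA per cell cannot be told apart.

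**Figure D1:**
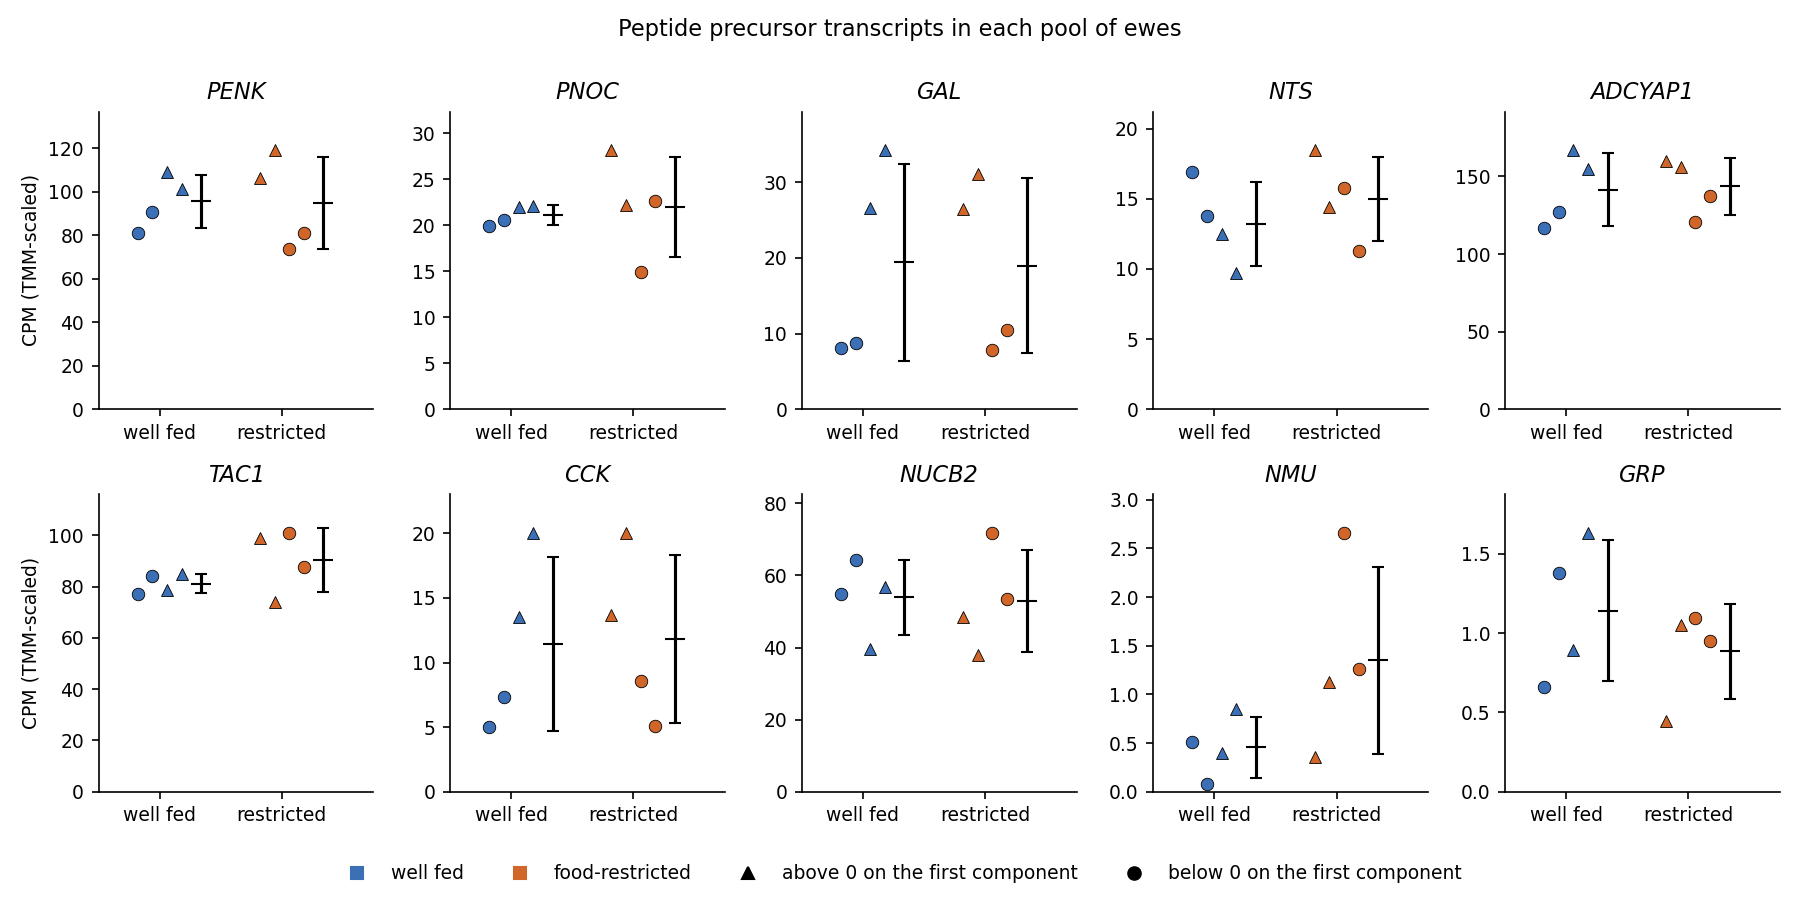
CPM of each peptide precursor in each pool, on linear axes from 0, with the mean and SD of the 4 pools of a group beside the points. Triangles mark upper pools and circles lower pools, and for GAL, CCK, PENK and ADCYAP1 the triangles lie above the circles in both feeding groups.

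Among the opioid-type precursors, PENK makes the enkephalins, which act on delta and mu opioid receptors. PENK (gene ID 101109024) was at 106, 119, 73.9 and 81.0 CPM in food-restricted pools 1 to 4 and at 81.2, 90.9, 109 and 101 CPM in well-fed pools 1 to 4. The 4 upper pools were the highest 4, and both the highest and the lowest pool were food-restricted. The means were 95.0 ± 21.2 and 95.7 ± 12.2 CPM (SD, n = 4 each), or -0.01 as a log2 ratio (SE 0.17; 95% interval -0.37 to 0.36). PENK thus had an interval that excluded a doubling and a halving.

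PNOC (gene ID 101115683) encodes the precursor of nociceptin, the ligand of the receptor OPRL1. It was at 28.1, 22.2, 14.9 and 22.7 CPM in food-restricted pools 1 to 4 and at 19.9, 20.5, 22.0 and 22.1 CPM in well-fed pools 1 to 4. The well-fed pools were close to each other, while food-restricted pool 1 was the highest and pool 3 the lowest of all 8. The means were 22.0 ± 5.44 and 21.1 ± 1.10 CPM (SD, n = 4 each), or 0.06 as a log2 ratio (SE 0.18; 95% interval -0.34 to 0.45). A difference in spread between the groups was not tested.

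GAL (gene ID 100037696), the galanin precursor, varied between pools far more than between feeding groups. Its level was 26.4, 31.2, 7.89 and 10.5 CPM in food-restricted pools 1 to 4 and 8.11, 8.81, 26.6 and 34.2 CPM in well-fed pools 1 to 4. Each group thus held 2 high and 2 low pools, and the high ones were the upper pools. The group means were 19.0 ± 11.5 and 19.4 ± 13.1 CPM (SD, n = 4 each), or -0.03 as a log2 ratio (SE 0.54). The 95% interval ran from -1.23 to 1.16, or from 0.427-fold to 2.24-fold, and a doubling of GAL lay within it.

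NTS (gene ID 101108471) encodes neurotensin, a peptide of lateral and arcuate neurons. It was at 18.5, 14.4, 15.8 and 11.2 CPM in food-restricted pools 1 to 4 and at 16.9, 13.7, 12.5 and 9.71 CPM in well-fed pools 1 to 4. Food-restricted pool 1 was the highest and well-fed pool 4 the lowest, and the other 6 were interleaved. The log2 fold change was 0.18 (SE 0.20; 95% interval -0.27 to 0.63). Exact permutation of the pools (two-sided, log2 CPM) gave p = 0.457 for NTS.

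ADCYAP1 and TAC1 had the narrowest intervals. ADCYAP1 (gene ID 443337) is the precursor of PACAP, which is abundant in the ventromedial nucleus, and was at 160, 156, 121 and 138 CPM in food-restricted pools 1 to 4 and at 117, 127, 167 and 155 CPM in well-fed pools 1 to 4. The 4 upper pools were again the highest. The means were 144 ± 18.3 and 141 ± 23.5 CPM (SD, n = 4 each), or 0.02 as a log2 ratio (SE 0.14; 95% interval -0.29 to 0.34).

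TAC1 (gene ID 100034669), the precursor of substance P and neurokinin A, was at 98.9, 73.9, 101 and 87.8 CPM in food-restricted pools 1 to 4 and at 77.2, 84.1, 78.7 and 84.8 CPM in well-fed pools 1 to 4. Food-restricted pools 1, 3 and 4 lay above every well-fed pool, and food-restricted pool 2 was the lowest of all 8. The means were 90.4 ± 12.4 and 81.2 ± 3.85 CPM (SD, n = 4 each), or 0.16 as a log2 ratio (SE 0.12; 95% interval -0.11 to 0.42). The exact two-sided permutation p of TAC1 was 0.286, where 4 pools against 4 cannot give a p below 0.0286.

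Of the peptides known to reduce feeding, CCK (gene ID 101116683), cholecystokinin, followed the pools in the way GAL did. It was at 13.7, 20.0, 8.54 and 5.1 CPM in food-restricted pools 1 to 4 and at 5.01, 7.33, 13.5 and 20.0 CPM in well-fed pools 1 to 4. The 4 upper pools were the highest in CCK as well, and the group means were 11.8 ± 6.51 and 11.5 ± 6.74 CPM (SD, n = 4 each). Its log2 fold change was 0.05 (SE 0.47; 95% interval -0.99 to 1.09).

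NUCB2 (gene ID 101114639) encodes nucleobindin-2, from which nesfatin-1 is cut. It was at 48.5, 37.8, 71.8 and 53.6 CPM in food-restricted pools 1 to 4 and at 55.0, 64.2, 39.5 and 56.9 CPM in well-fed pools 1 to 4. Food-restricted pool 3 was the highest and food-restricted pool 2 the lowest. The log2 fold change of NUCB2 was -0.03 (SE 0.20; 95% interval -0.48 to 0.42).

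NMU (gene ID 101116654), neuromedin U, had the largest log2 fold change of the 10 and few reads. It had 15, 47, 114 and 53 counts in food-restricted pools 1 to 4 and 23, 3, 19 and 30 counts in well-fed pools 1 to 4. On the scaled level these were 0.351, 1.13, 2.66 and 1.26 CPM against 0.505, 0.0780, 0.396 and 0.845 CPM. Food-restricted pools 2, 3 and 4 lay above every well-fed pool, and food-restricted pool 1 lay below 3 of them. The 3 counts of well-fed pool 2 carry an exact 95% Poisson interval of 0.0161 to 0.228 CPM, which covers counting error only.

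The means of NMU were 1.35 ± 0.961 CPM with food restriction and 0.456 ± 0.316 CPM in well-fed pools (SD, n = 4 each), a ratio of 2.95 in the fit, or 1.56 on the log2 scale (SE 0.72). The 95% interval ran from -0.04 to 3.16. NMU did not pass (edgeR unadjusted p = 0.0544 and adjusted p = 1.00), and exact two-sided permutation of its pools gave p = 0.143. Leaving out each pool in turn gave NMU log2 fold changes from 1.00, without food-restricted pool 3, to 2.02, without well-fed pool 4. Among the lower pools NMU was at 2.66 and 1.26 CPM with food restriction and at 0.505 and 0.0780 CPM without it. Among the upper pools it was at 0.351 and 1.13 CPM against 0.396 and 0.845 CPM. The ratio of the means was 6.71 in the lower and 1.19 in the upper pools, and the difference between these ratios was not tested.

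GRP (gene ID 443332), gastrin-releasing peptide of the bombesin family, was also low, with 19 to 58 counts per pool. It was at 0.445, 1.05, 1.10 and 0.949 CPM in food-restricted pools 1 to 4 and at 0.659, 1.38, 0.897 and 1.63 CPM in well-fed pools 1 to 4. Food-restricted pool 1 was the lowest, and well-fed pools 2 and 4 were the highest. The log2 fold change of GRP was -0.36 (SE 0.45; 95% interval -1.36 to 0.64), the lowest value of the 10.

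**Figure D2:**
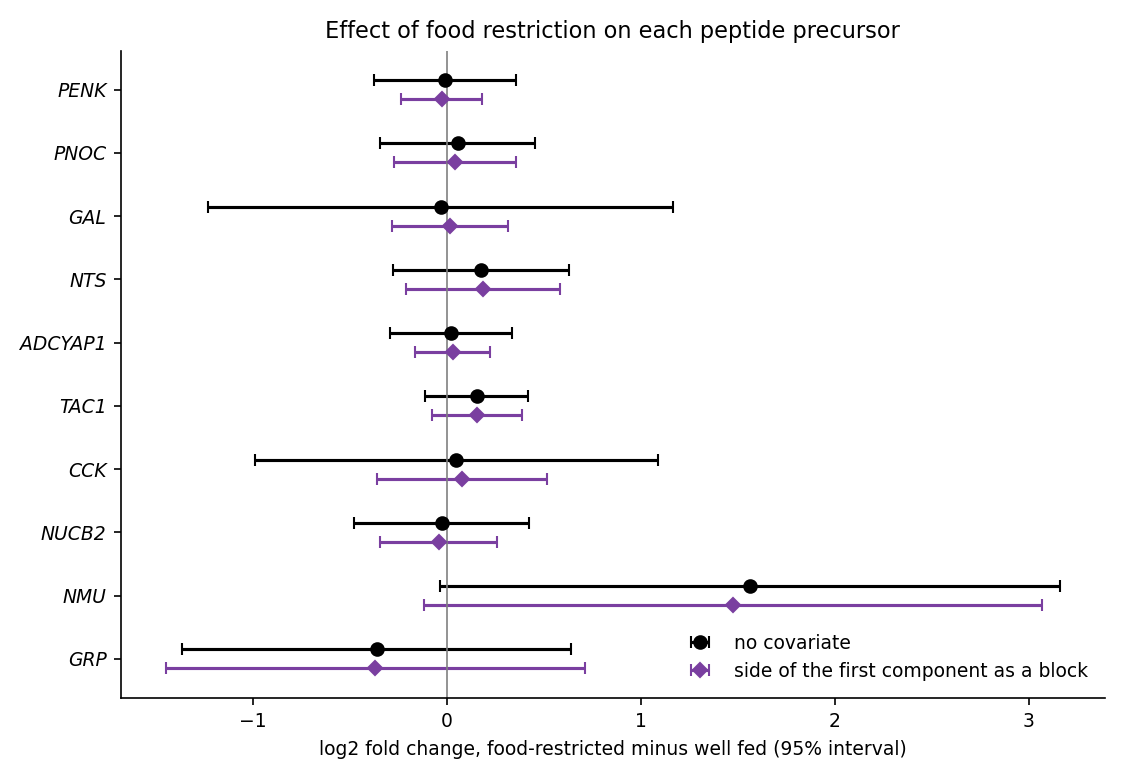
Log2 fold change of each peptide precursor, food-restricted minus well fed, with its 95% interval from edgeR, fitted without a covariate (circles) and with the side of the first component as a block (diamonds). All 20 intervals include 0, and those of GAL and CCK shrink most with the block.

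The split of the pools was large for 2 of the 10 genes and present within both feeding groups. GAL was at 26.4 to 34.2 CPM in upper pools and at 7.89 to 10.5 CPM in lower pools. CCK was at 13.5 to 20.0 CPM in upper pools and at 5.01 to 8.54 CPM in lower pools. The ratio of upper to lower pools for GAL was 3.14 in food-restricted and 3.60 in well-fed pools, and for CCK it was 2.47 and 2.72.

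Smaller differences of the same sign appeared in PENK, with ratios of 1.45 and 1.22 in food-restricted and well-fed pools, and in ADCYAP1, with 1.23 and 1.32. PNOC had ratios of 1.34 and 1.09, with overlapping sides. NUCB2 went the other way, with ratios of 0.688 and 0.808, although its upper and lower pools overlapped. TAC1 stood near 1, at 0.915 and 1.01. NTS, NMU and GRP had ratios on opposite sides of 1 in the 2 feeding groups. Upper and lower pools did not overlap in 4 of the 10 genes (GAL, CCK, PENK and ADCYAP1), where they did not overlap in 4208 of all tested genes, or 23.1%. The sides were drawn from these libraries, so no test of this difference was made. On the log2 scale, 1120 genes stood at least 1 higher in upper than in lower pools, and by this difference GAL was at rank 273 and CCK at rank 549 of 18193.

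**Figure D3:**
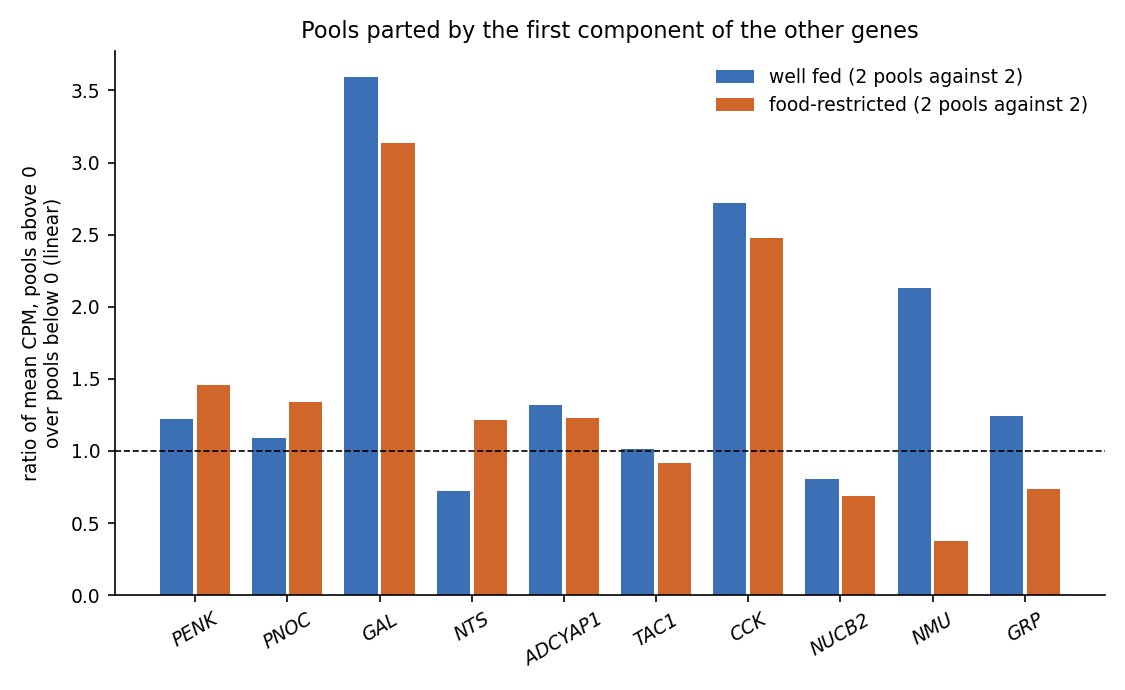
Ratio of the mean CPM of the 2 upper pools to that of the 2 lower pools within each feeding group, on a linear axis from 0 with a dashed line at 1. GAL reaches 3.60 and 3.14 and CCK 2.72 and 2.47 in well-fed and food-restricted pools, and the other genes with both bars above 1 are PENK, PNOC and ADCYAP1.

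Within each side, the feeding groups had similar levels of GAL and CCK. Among upper pools GAL was at 26.4 and 31.2 CPM with food restriction and 26.6 and 34.2 CPM without it. Among lower pools it was at 7.89 and 10.5 CPM against 8.11 and 8.81 CPM. The ratios of the means, food-restricted over well fed, were 0.947 and 1.09 for GAL and 1.01 and 1.11 for CCK, in upper and lower pools.

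With the side as a block in the fit, the SE of GAL went from 0.54 to 0.14 and its log2 fold change was 0.02 (95% interval -0.28 to 0.32). The SE of CCK went from 0.47 to 0.20, with a log2 fold change of 0.08 (95% interval -0.36 to 0.51). In this fit both intervals excluded a doubling and a halving with food restriction. None of the 10 genes was called with the block (edgeR adjusted p of at least 0.991), while 6 genes of the table were. The block was taken from these libraries and not from the labels, so these intervals describe the pools at hand.

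Marker lists of the tissue and its neighbours were summed in each pool beside this split. Of 16 lists, 4 had upper and lower pools that did not overlap, and the sums of 3 of these are given. The 12 arcuate markers were at 944 to 1218 CPM in upper and 551 to 863 CPM in lower pools. Upper and lower pools did not overlap in 3 of these 12 (POMC, NR5A1 and SIX6), beside 23.1% of all tested genes. POMC alone was at 233 to 359 against 50.5 to 118 CPM. Well-fed pool 3, an upper pool, had a sum of 944 CPM with POMC at 244 CPM. Food-restricted pool 4, a lower pool, had a sum of 863 CPM with POMC at 118 CPM. Without POMC, the sums of the remaining arcuate markers overlapped between upper and lower pools. ISL1 and TBX3 differed in the other direction (-0.34 and -0.06 as log2 differences, upper minus lower, with overlapping pools). The 7 suprachiasmatic markers were at 236 to 349 against 111 to 154 CPM, of which AVP (vasopressin) alone was at 127 to 236 against 26.4 to 72.2 CPM, while VIP was at most 0.676 CPM and PROK2 was listed at 0 in 7 pools. The 6 endothelial markers were at 166 to 211 against 152 to 164 CPM. Upper and lower pools did not overlap in 2 of 6 tested suprachiasmatic and 3 of 6 tested endothelial markers. The summed neuronal markers overlapped, at 5113 to 5490 CPM in upper and 5288 to 5990 CPM in lower pools. The part of any of these cells or regions in the split of GAL and CCK was not tested.

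Between the feeding groups, the sums of 15 of the 16 marker lists overlapped. The exception was the red blood cell list, which was at 0 to 0.796 CPM in food-restricted and 0.910 to 3.73 CPM in well-fed pools. Of its 5 genes, 4 had a row, ALAS2 and SLC4A1 were listed at 0 in all 8 pools, and only 1 had enough reads to be tested. A difference in blood content was not tested.

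Transcripts whose pattern over the 8 pools was nearest to that of the most variable peptide genes were then looked up among 12020 genes. For GAL the nearest was HCRT, the orexin precursor of lateral hypothalamic neurons, with a root-mean-square difference of 0.12 on the log2 scale after each gene was centred on its own mean. HCRT was at 19.8, 26.3, 5.83 and 9.56 CPM in food-restricted pools 1 to 4 and at 6.59, 7.07, 25.4 and 28.1 CPM in well-fed pools 1 to 4. Next came HCFC1R1, also at 0.12. The SD of GAL itself over the 8 pools was 0.95 on this scale. HCRT was the 1 gene of the 5 lateral hypothalamic markers in which upper and lower pools did not overlap. The sum of these 5 markers overlapped, at 252 to 349 CPM in upper and 317 to 448 CPM in lower pools.

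For CCK, with an SD of 0.81, the nearest genes were C24H7orf50 (0.20) and MRPL36 (0.21), the latter a subunit of the mitochondrial ribosome. NMU had no near neighbour among the genes searched, which had means of at least 5 CPM. The closest were RDH13 (gene ID 101122882) at 0.98 and SEC14L5 at 1.00, against an SD of 1.34 for NMU. NMU itself was at most 2.66 CPM, so genes of its own level were not searched. All these genes were measured in the same 8 libraries.

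**Figure D4:**
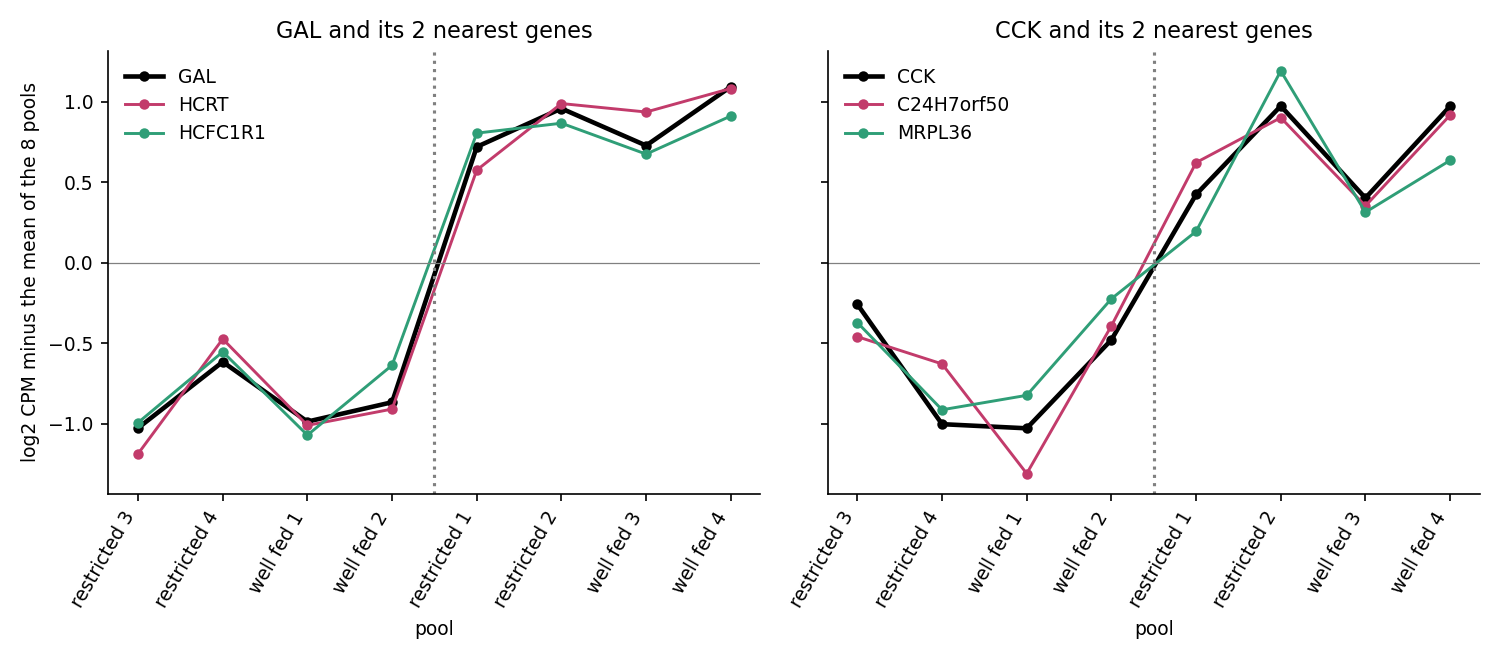
Log2 CPM of GAL and CCK, each with its 2 nearest genes, minus the mean of the 8 pools, with lower pools to the left of the dotted line and upper pools to the right. The nearest genes were chosen for their likeness to GAL or CCK over these same 8 pools. The 3 curves of a panel therefore step up together at the line, and no gene separates the food-restricted from the well-fed pools.

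The receptors of these peptides were measured in the same pools. Of 23 receptors listed, 17 were tested and none was called, with 7 log2 fold changes above 0 and 10 below it (median -0.07, against 0.01 over all genes). The peptide receptors with the most reads showed narrow intervals. OPRL1, the nociceptin receptor, was at 92.4 ± 7.98 CPM in food-restricted and 88.8 ± 3.41 CPM in well-fed pools (SD, n = 4 each). ADCYAP1R1, the PACAP receptor, was at 515 ± 40.1 against 572 ± 81.0 CPM (log2 ratio -0.15, SE 0.11). For neurotensin, NTSR2 was at 84.3 ± 14.9 against 84.7 ± 14.9 CPM and the sorting receptor SORT1 at 183 ± 10.1 against 182 ± 19.3 CPM.

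Of the galanin receptors, 2 were near the limit of detection. GALR1 had 0 to 29 counts and GALR2 0 to 13 counts per pool, and neither was tested. GALR3 was at 2.03 ± 0.817 against 2.49 ± 0.367 CPM (SD, n = 4 each; log2 fold change -0.29, SE 0.35). The GRP receptor GRPR was at 0 counts in 5 pools, which allows up to 3 counts, a level of 0.0669 to 0.0829 CPM in those 5 libraries. In food-restricted pool 2 GRPR had 21 counts.

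NMUR2, the neuromedin U receptor of the brain, had the smallest p of the receptors. It was at 0.679, 1.46, 0.723 and 1.33 CPM in food-restricted pools 1 to 4 and at 1.76, 1.95, 1.23 and 2.42 CPM in well-fed pools 1 to 4. Well-fed pool 3 lay below food-restricted pools 2 and 4, so the groups overlapped. The log2 fold change of NMUR2 was -0.81 (SE 0.39; 95% interval -1.67 to 0.05), and it did not pass (edgeR unadjusted p = 0.0624, adjusted p = 1.00). NMUR2 had few reads, with 29 to 86 counts per pool. NMU itself was at 1.56 in the same fit and did not pass either. A relation between NMU and NMUR2 was not tested.

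The cholecystokinin receptor CCKBR was at 31.6 ± 4.48 against 28.4 ± 6.13 CPM (SD, n = 4 each; log2 fold change 0.15, SE 0.17). TACR3, the neurokinin B receptor, was at 3.29 ± 0.818 against 4.26 ± 0.964 CPM (-0.37, SE 0.26). TACR1, which binds substance P, was at 10.9 ± 3.03 against 10.6 ± 2.44 CPM. None of these 3 passed, and the levels of different genes are not compared because no transcript lengths were used.

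**Figure D5:**
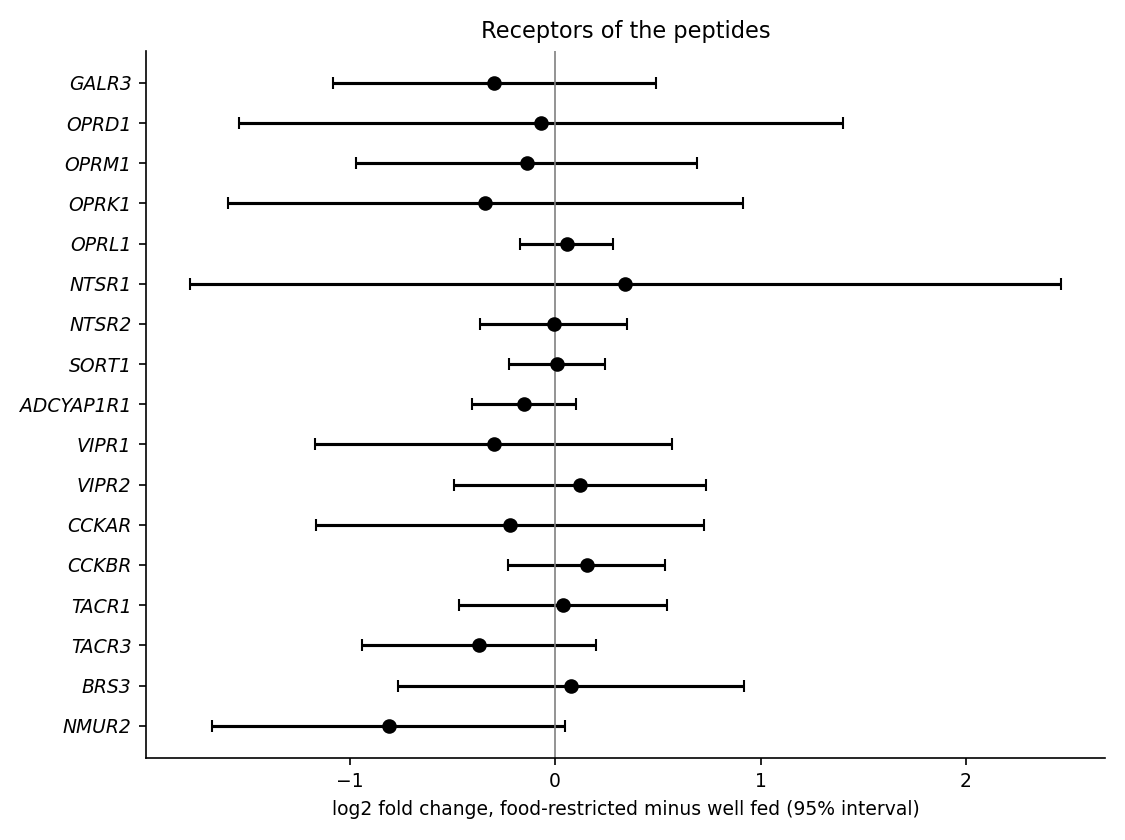
Log2 fold change of the 17 tested peptide receptors, food-restricted minus well fed, with 95% intervals from edgeR. All intervals include 0, and that of NMUR2 reaches 0.05 at its upper end.

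Precursors related to these peptides were also tested. Of 9 tested relatives, none was called, 2 lay above 0 and 7 below it (median log2 fold change -0.11). TAC3, the neurokinin B precursor and a relative of TAC1, was at 115 ± 8.78 against 146 ± 23.6 CPM (SD, n = 4 each; -0.35, SE 0.13; edgeR unadjusted p = 0.0228, adjusted p = 1.00). It was at 115, 117, 103 and 124 CPM in food-restricted pools 1 to 4 and at 118, 157, 137 and 172 CPM in well-fed pools 1 to 4, and food-restricted pool 4 lay above well-fed pool 1. NUCB1, the relative of NUCB2, had a log2 fold change of -0.10 (SE 0.10). PDYN, the dynorphin precursor, was at -0.21 (SE 0.25). VIP, a relative of ADCYAP1, had 0 to 26 counts per pool.

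Enzymes and granule proteins that process such precursors gave no call either. Of 13 tested, 4 lay above 0 and 9 below it (median -0.03). PCSK1, the convertase that cuts many prohormones, was at 285, 287, 344 and 286 CPM in food-restricted pools 1 to 4 and at 395, 359, 373 and 330 CPM in well-fed pools 1 to 4. Food-restricted pool 3 was the 1 food-restricted pool above a well-fed pool. The means of PCSK1 were 301 ± 29.3 and 364 ± 27.3 CPM (SD, n = 4 each), or -0.28 as a log2 ratio (SE 0.10; edgeR unadjusted p = 0.0206, adjusted p = 1.00).

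The next smallest p in this list belonged to CHGB (chromogranin B) at -0.18 (SE 0.09), the chaperone DNAJC3 at -0.21 (SE 0.15) and QPCT, which forms the N-terminal pyroglutamate of peptides such as neurotensin, at -0.16 (SE 0.13). PCSK1N, which encodes proSAAS, was named after its values were seen. It was at 348, 457, 338 and 449 CPM in the upper pools (food-restricted 1 and 2, well-fed 3 and 4) and at 54.0, 108, 27.3 and 45.0 CPM in the lower pools (food-restricted 3 and 4, well-fed 1 and 2). PCSK1N thus showed the same order of sides as GAL and CCK, but most genes of its list with separate sides did not. Separate sides were found for 6 genes in this list of 13, where the share over the whole set of genes was 23.1%. Of these 6, CHGA was also higher in the upper pools, while PAM, SCG2, SCG3 and DNAJC3 were lower there.

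Peptidases that break down neuropeptides were the last list. Of 12 tested, none was called, 7 lay above 0 and 5 below it (median 0.03). DPP4, a dipeptidyl peptidase of the cell surface, was at 3.19 ± 1.55 against 2.13 ± 0.708 CPM (SD, n = 4 each; log2 fold change 0.58, SE 0.37), with food-restricted pool 1 at 5.48 CPM and the other 7 pools at 1.21 to 2.94 CPM. LNPEP was at -0.53 (SE 0.39), NLN (neurolysin, which cleaves neurotensin) at 0.16 (SE 0.13) and ECE2 at -0.10 (SE 0.11).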

How the data were processed

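The authors deposited 1 table of raw counts with a row for each gene and a column for each of 8 pools, per the file headers. Per the labels, RNA was extracted with TriReagent and libraries were made with a stranded TruSeq mRNA kit. The submitters' processing notes name featureCounts 2.0.0, TopHat2 2.1.1, Bowtie2 2.3.5.1, FastQC, SAMtools 1.9 and bcl2fastq 2.20, with no order or role. For build, annotation and strand setting (not given in the sources used here) nothing was assumed, so overlapping genes are uncertain and coordinates are left out. Names come from the table, and 28100 of its gene IDs (83.6%) were found in RefSeq's ARS-UI_Ramb_v3.0 gene table, used for names only. No sequences are shown.

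The fit was made with edgeR 4.0.16 (R 4.3.3): filterByExpr (minimum count 10, minimum total 15), TMM scaling and the quasi-likelihood F test without covariates, with a threshold of 0.05 on p adjusted by Benjamini-Hochberg over 18193 genes. The SE is the absolute log2 fold change over the square root of F, and 95% intervals use the fit's degrees of freedom. Permutation tests went over all 70 splits of the pools, on log2 CPM (prior count 2). The fit was tested on simulated data with known changes. It returned sizes and signs close to those put in but missed part of the changed genes, also at the largest fold. A first requirement on the share recovered was not met and was replaced, after that was seen, by requirements on size, sign and false calls.

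The members and the lists were chosen with earlier results of these data known. The sum of 1 marker list is not reported here. The rule named all 10 members, 4 genes with the smallest p per list, receptors of the members with the highest and lowest change, and the 2 genes of at least 5 CPM nearest in pattern to the 3 most variable members. The receptors OPRL1, NTSR2, SORT1, TACR1, GALR1, GALR2 and GALR3 are given outside this rule. No 2 pools of a group looked like the same library (chi-square of 25.1 to 169 per degree of freedom). Whether pools share ewes is not stated in the labels, and if they do the p-values measure only the spread between these mixes. Alternatives used DESeq2 1.42.0, limma 3.58.1 and sva 3.50.0.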

Additional observations from a re-analysis of the deposited data

How the results depend on the processing

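None of the 10 peptide genes was called in any of the 18 alternative fits, or 17 for NMU, which the filter of at least 1 CPM in 4 pools removed. The edgeR, DESeq2 or limma adjusted p was 0.857 or more in all fits that gave one. Over all genes, where 1 gene was called, 6 were called with the side of the first component as a block (2 higher, 4 lower), 7 with 1 surrogate variable (3 higher, 4 lower) and 5 with DESeq2 (4 lower), and the other scalings, filters and limma voom called 1. Leaving out any 1 pool ended the call of that gene (0 genes, 0 higher), and gave between 0 and 1 members whose groups did not overlap. These were NMU without food-restricted pool 1, TAC1 without pool 2 and PNOC without pool 3, where 2.79%, 6.22% and 3.70% of all tested genes did not overlap. In each case the pool left out was one that had made the groups overlap.

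With the replicate number as a block, 0 genes were called (0 higher), and the log2 fold change of GAL was 0.015. Same-numbered pools did not deviate together (correlations across genes between -0.42 and -0.21). Each such pair held 1 upper and 1 lower pool, so these correlations cannot show whether the numbers pair the pools. The sign of fold changes near 0 was not stable. GAL was at 0.017 with the side as a block and 0.026 with limma voom, and with 1 surrogate variable ADCYAP1 was at -0.0054 and CCK at -0.022. Leaving out each pool in turn gave log2 fold changes from -0.36 to 0.39 for GAL, -0.12 to 0.094 for PENK, -0.082 to 0.20 for PNOC, -0.059 to 0.13 for ADCYAP1, -0.32 to 0.46 for CCK and -0.21 to 0.12 for NUCB2. NTS, TAC1, GRP and NMU kept their sign in every alternative. The other scalings moved the median of all genes by at most 0.01. For NMU, the exact 95% Poisson intervals of food-restricted pools 1 (0.197 to 0.579 CPM) and 3 (2.19 to 3.20 CPM), which cover counting error only, did not overlap.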

Other observations

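Other members of the peptide families showed the split between upper and lower pools, and these genes were picked after their values were seen. NMB, the neuromedin B precursor of the bombesin family, was at 12.1, 11.0, 9.11 and 8.03 CPM in the upper pools (food-restricted 1 and 2, well-fed 3 and 4) and at 5.18, 3.08, 3.54 and 4.55 CPM in the lower pools (food-restricted 3 and 4, well-fed 1 and 2). GAST, the gastrin precursor and a relative of CCK, was at 1.10, 1.36, 0.646 and 1.30 CPM in the upper pools and at 0.467, 0.498, 0.461 and 0.286 CPM in the lower pools. Of the receptors for enkephalins, OPRD1 was at 1.10, 1.39, 1.54 and 1.21 CPM in the upper pools and at 0.163, 0.925, 0.703 and 0.286 CPM in the lower pools. The neurotensin receptor NTSR2 was at 91.1, 101, 98.5 and 96.1 CPM in the upper pools and at 68.2, 76.3, 68.5 and 75.7 CPM in the lower pools, while SORT1 was lower in the upper pools, at 178, 174, 174 and 160 CPM against 197, 183, 205 and 188 CPM. These genes come from lists in which upper and lower pools did not overlap for 3 of 9 tested family ligands (POMC was the other) and 5 of 17 tested receptors (OPRM1 and CCKBR were the other 2), beside 23.1% of all tested genes.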
